A study of Mus musculus with 9 samples.

Results

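The genes described here encode the initiation and elongation factors of translation. They were all genes whose array name begins with Eif or Eef and a digit, other than the Eif4e and Eif4g genes, and 55 of the 36413 gene names on the array met this rule. The naming rule used no measured level, but the genes were chosen with earlier results of these data known. Each gene was read from 1 probe, the one of highest mean log2 signal over all arrays. The RNA came from extracellular vesicles (EVs), membrane particles that cells release with RNA inside, of mouse embryonic fibroblasts (MEFs), connective tissue cells that came from a commercial supplier. One group held EVs of MEFs labelled PBS treated (5 arrays, PBS being phosphate-buffered saline) and the other held EVs of MEFs labelled control (4 arrays), and the question is which RNAs of the vesicles differ with the treatment. The labels name no plasmid, genotype or time for either group and leave unsaid if electric pulses were applied with the PBS. Nothing says that the arrays of a group came from separate cultures, so a p-value here measures array-to-array spread that may be technical.

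Translation begins when eIF2 carries the initiator tRNA and GTP to the small ribosomal subunit, where eIF1, eIF1A, eIF3 and eIF5 hold the complex and help it find the start codon while the helicase eIF4A opens the mRNA leader. Several kinases of eIF2, each tied to its own kind of stress, block the recycling of eIF2 by its exchange factor eIF2B and so lower initiation. After the subunits join, eEF1A brings each aminoacyl-tRNA and eEF2 moves the ribosome along the mRNA, and the mRNAs of elongation factors and ribosomal proteins are known for a tract of pyrimidines at their very start through which growth signals control their translation.

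A level is given as log2 of a probe's background-corrected brightness minus the 75th percentile of that array's detected probes, and a difference is the PBS-treated mean minus the control mean of such levels. Per array, 12577 to 19226 of the 55681 probes were well above background, on average 17964 ± 1200 on the PBS-treated arrays (SD, n = 5) and fewer, 14009 ± 1609, on the control arrays (SD, n = 4; exact permutation test, two-sided, p = 0.00794). Arrays correlated at 0.85 to 0.99 within the PBS-treated group, 0.81 to 0.99 within the control group and 0.60 to 0.88 between the groups. The arrays lay on 2 slides, each holding both groups. Of the 10 fibroblast markers listed, 9 could be tested, and Col1a1, Fn1 and Vim were well above background on every array, while Thy1 was on none. Dcn (2.03) and Lum (1.87) were called higher in PBS-treated EVs, and Pdgfra (-1.94), Col1a1 (-1.35) and Fn1 (-1.17) lower, while the summed level of the list was 3.61 to 3.85 in PBS-treated and 3.51 to 3.79 in control EVs. Of 8 leukocyte markers, Cd68, Emr1 and Lyz2 were above background on no array and Ptprc on 1, yet Itgam fell by 1.30 and Csf1r fell by 2.70 on the log2 scale, and the summed level of the list was -0.24 to 0.80 in PBS-treated and 1.10 to 1.68 in control EVs. Cd3e of the same list was above background on every array and did not pass (-0.82, adjusted p = 0.325). Of 4 endothelial markers, Kdr was above background on every array and fell by 1.42 on the log2 scale (adjusted p = 0.00102). Pecam1 was above background on 1 PBS-treated and 2 control arrays, and Cdh5 and Tek on none. No epithelial marker was above background on more than 1 array. The part of other cell types in the results was not tested.

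Of the 55 factor genes, 51 were well above background on at least 4 arrays and were tested with the other genes in a limma fit over 14279 genes. In PBS-treated EVs, 29 factor genes were higher and 11 were lower at an adjusted p under 0.05, and 11 did not pass. These counts moved with the processing, to 44 higher and 2 lower by spike-in probes, 22 and 3 by the percentile over all probes and 16 and 12 with normexp background correction and the percentile of detected probes. The counts of all 14279 genes moved too. They were 8969 higher and 697 lower by spike-in probes, and 1888 and 4659 with normexp and the percentile. By the percentile over all probes 1348 were lower. Under the percentile of detected probes without normexp, 52.3% of all genes tested were called, 31.6% as higher and 20.7% as lower. The factor genes were thus called higher at a share above that of the array under the percentile scaling, and 11 of 51 lower calls is close to the share over all genes. The median difference of the 51 genes was 0.62 (log2), against -0.02 over all genes, and 81 genes with a cytoplasmic ribosomal protein symbol had a median of -0.38. At 2-fold or more, 17 factor genes were higher (20.5% of all genes) and 5 were lower (14.4% of all genes). The groups did not overlap for 39 of the 51 factor genes, and 47.0% of all genes showed such a separation. In RNA pooled over many vesicles, fewer vesicles that carry an mRNA and less of it per vesicle cannot be told apart.

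**Figure D1:**
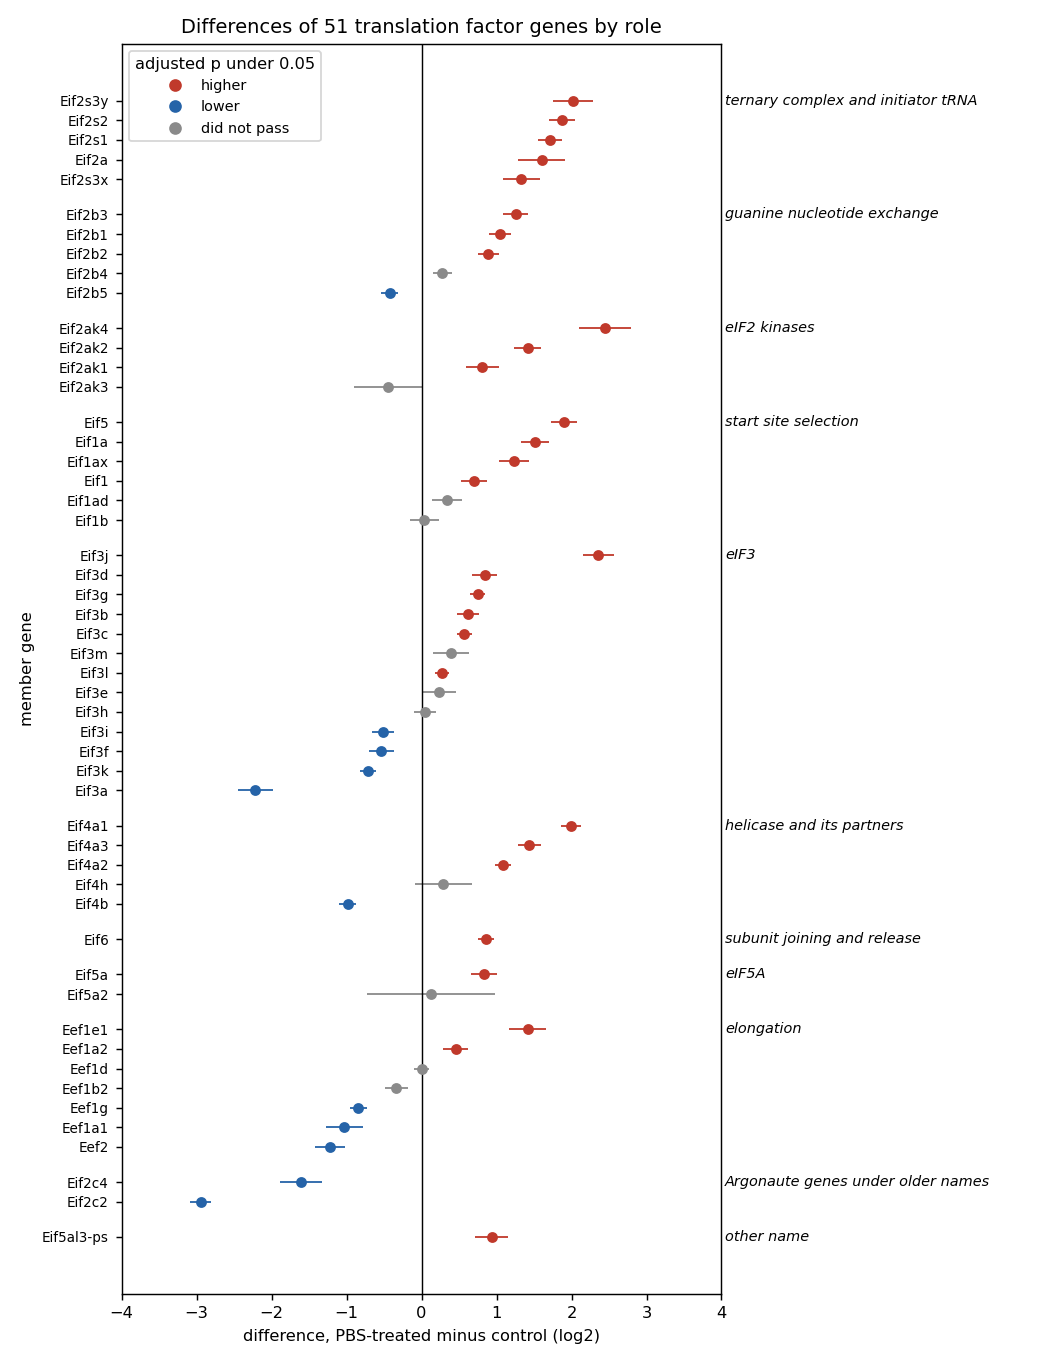
Difference of each of the 51 tested factor genes, grouped by role, as PBS-treated minus control on the log2 scale (points) with the standard error of the limma fit (bars). All 5 genes of the ternary complex and initiator tRNA group lie to the right of 0, and the 11 genes called lower reach from -0.42 for Eif2b5 to -2.94 for Eif2c2.

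**Figure D2:**
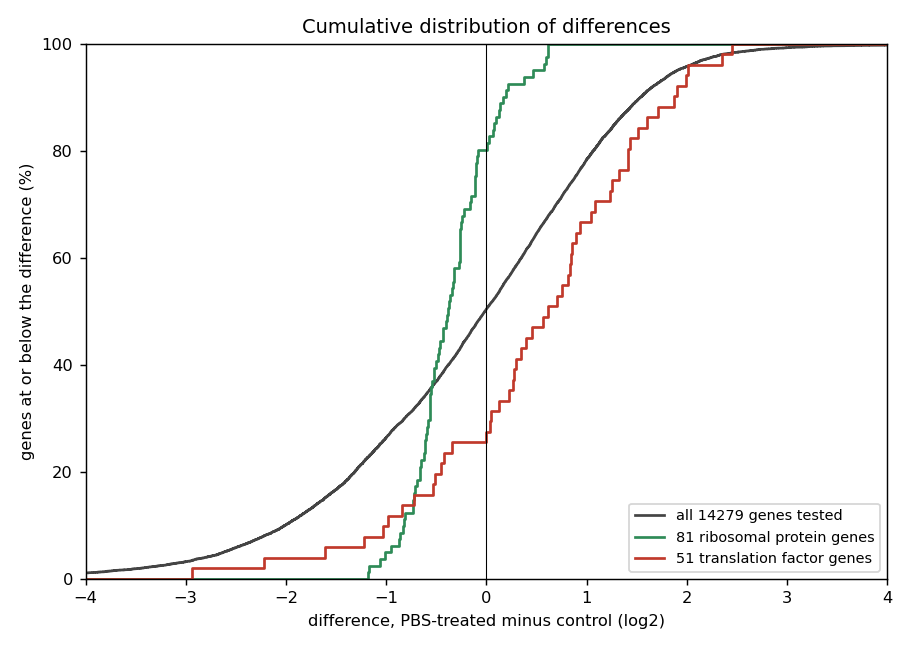
Share of genes (vertical axis, percent) at or below each difference (horizontal axis, log2, shown from -4 to 4) for the 51 factor genes, the 81 ribosomal protein genes and all 14279 genes tested. The line of the factor genes runs to the right of that of all genes over most of the range, with medians of 0.62 and -0.02, and that of the ribosomal protein genes stays between -1.18 and 0.62.

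The 4 subunit genes of eIF2, the carrier of initiator tRNA, were called higher in PBS-treated EVs, as were 31.6% of all genes tested. The 4 had a median difference of 1.79, and each fitted difference was past 2-fold. Eif2s3y was above background on no control array, however, so that its fold has only a lower bound of 1.87. Eif2s1 encodes the alpha subunit, on which the stress kinases act, and its probe lies at chr12:79986224-79986283 on mm9. Its level was -1.55, -1.50, -1.49, -1.83 and -1.88 on PBS-treated arrays 1 to 5 and -3.27, -3.29, -3.75 and -3.14 on control arrays 1 to 4. Every PBS-treated array was thus above every control array, by a difference of 1.71 ± 0.16 (SE, limma adjusted p = 5.62e-05). Eif2s2, the beta subunit gene (probe at chr2:154698193-154698252), had levels of 1.63, 1.61, 1.62, 1.63 and 1.58 in PBS-treated and 0.14, -0.05, -0.66 and -0.47 in control EVs. Its PBS-treated arrays were nearly alike, with an SD of 0.02, and the difference was 1.87 ± 0.17 (SE, adjusted p = 4.45e-05).

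The gamma subunit of eIF2, which binds GTP and the tRNA, is encoded by an X-linked and a Y-linked gene in mice. Eif2s3x (probe at chrX:91435083-91435142) had levels of -2.83, -2.72, -2.09, -2.23 and -2.25 in PBS-treated EVs. Its control levels were -4.20, -4.02, -3.54 and -3.25, all below those of the PBS-treated arrays, for a difference of 1.33 ± 0.25 (SE, adjusted p = 0.00204; 0.36 with normexp and the percentile, adjusted p = 0.247). Eif2s3y was well above background on all 5 PBS-treated arrays and on no control array. Its levels were -3.91, -4.20, -4.99, -3.80 and -4.10 against -5.73, -6.37, -6.38 and -6.37, and the limma fit on these levels gave 2.01 (adjusted p = 0.000314). Against the detection limit of the control arrays it was at least 1.87-fold higher, a bound that was not itself tested. With normexp and the percentile the Eif2s3y difference was -0.10, without passing (adjusted p = 0.758), and with normexp and quantiles it was 0.74 and called higher. The relative level of the X and Y copies on an array differed by -0.69 between the groups, which did not pass (exact permutation test, two-sided, p = 0.183, and 0.213 adjusted over 7 pairs) and turned to 0.46 with normexp and the percentile (exact permutation p = 0.0417, unadjusted) and to 0.11 with normexp and quantiles (exact permutation p = 0.54). Eif2a, whose product can bring initiator tRNA without GTP, rose by 1.60 ± 0.31 (SE, adjusted p = 0.00248), with differences of 0.91 on slide 1 and 2.34 on slide 2, and was above background on 2 of the 4 control arrays.

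The exchange factor eIF2B, which reloads eIF2 with GTP, was split under the percentile scaling. Eif2b1 (alpha, 1.05 ± 0.14, SE, adjusted p = 0.000404), Eif2b2 (beta, 0.89) and Eif2b3 (gamma, 1.25 ± 0.17, SE, adjusted p = 0.00036) rose, Eif2b4 (delta) differed by 0.28 without passing (adjusted p = 0.105), and Eif2b5, which encodes the catalytic epsilon subunit, fell by 0.42 on the log2 scale. Eif2b5 levels were -3.48, -3.29, -3.35, -3.20 and -3.09 in PBS-treated and -2.93, -2.82, -2.82 and -2.88 in control EVs, a small difference with no overlap (SE 0.11, adjusted p = 0.0129). This call was kept with normexp and the percentile (-0.60). Eif2b5 did not pass by the percentile over all probes (-0.02), with normexp and quantiles (-0.08) or in the deposited value table (-0.003). By the spike-in probes it was called higher (0.88). Eif2b1 levels were -1.78, -1.66, -2.17, -1.61 and -1.70 against -2.72, -2.72, -2.97 and -2.91, also without overlap. Eif2b3 was above background on no control array, so that its fold has only a lower bound of 1.08.

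Of the genes for the 4 eIF2 kinases, 3 rose and 1 did not pass, where 31.6% of all genes tested were called higher. Eif2ak4 encodes GCN2, the kinase that senses lack of amino acids, and had the largest rise of all members under this scaling (2.45 ± 0.35, SE, adjusted p = 0.000456; probe at chr2:118300892-118300951). Its levels were -3.09, -3.15, -3.09, -3.64 and -3.60 in PBS-treated EVs against -4.88, -5.35, -6.44 and -6.38 in control EVs, where only 1 array was above background. Eif2ak2, which encodes the double-stranded RNA kinase PKR, rose by 1.41 ± 0.18 (SE, adjusted p = 0.000223), and Eif2ak1, the heme-regulated kinase, by 0.81 ± 0.22 (SE, adjusted p = 0.0139). Eif2ak3, which encodes PERK of the endoplasmic reticulum, differed by -0.45 ± 0.46 (SE, adjusted p = 0.426), and its levels overlapped, from -6.98 to -5.78 in PBS-treated and from -6.60 to -4.64 in control EVs. It was above background on 2 arrays of each group, and its difference was -1.17 on slide 1 and 0.25 on slide 2. Eif2ak3 was called lower without control replicates 3 and 4, the only control arrays of slide 2 (-1.22, adjusted p = 0.0435). That fit sets PBS-treated arrays of both slides against controls of slide 1 alone, so group and slide are partly mixed in it. Eif2ak3 was also lower with normexp and the percentile (-1.05, adjusted p = 0.00242), a processing under which none of the other 3 kinase genes passed.

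The calls of several dim members changed with the processing. Together, 8 members (Eef1e1, Eif2a, Eif2ak1, Eif2ak2, Eif2ak4, Eif2b3, Eif2s3y and Eif3j) were above background on all PBS-treated arrays and on fewer control arrays, and all 8 were called higher. A gene was tested if above background on at least 4 arrays, which the PBS-treated arrays alone provided here. The share called higher among all genes detected in this way was not computed. These 8 members count among the 29 called higher, although such a pattern of detection already favours that call. With the percentile and normexp, which models the background and adds a constant, their differences ran from -0.56 (Eif2ak1) to 0.84 (Eif3j), 5 of the 8 were below 0, and Eif3j alone was called (adjusted p = 0.00721). With normexp and quantiles all 8 were above 0, from 0.31 (Eif2ak1) to 1.46 (Eif3j), and 7, all but Eif2ak1, were called higher, as they were in the deposited value table. Normexp with the percentile lowered the median difference of all genes to -0.51. Relative to that median, only Eif2ak1 (-0.05) and Eif2b3 (-0.02) of the 8 were below it. Among the 41 members above background on all 9 arrays, 21 were higher and 10 lower, where 33.0% of the 7163 genes that passed the same filter were called higher and 29.5% lower.

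Of the 6 genes that act in choosing the start codon, 4 rose and 2 did not pass, with a median difference of 0.97. The share called higher over all genes tested was 31.6%. Eif5, the GTPase-activating protein of eIF2, had levels of -0.38, -0.59, -0.43, -0.39 and -0.60 in PBS-treated EVs. On control arrays it stood at -1.98, -2.28, -2.45 and -2.80, all under the PBS-treated range (difference 1.90 ± 0.17, SE, adjusted p = 4.01e-05; probe at chr12:112784725-112784784). The 2 genes of eIF1A, which sits at the ribosomal A site while the leader is scanned, both rose, Eif1a by 1.51 ± 0.18 and Eif1ax by 1.23 ± 0.20 (SE, adjusted p = 0.000182 and 0.000937). Eif1, whose product guards against wrong start codons, rose by 0.70 ± 0.17 (SE, adjusted p = 0.00817), while its near relative Eif1b differed by 0.04 ± 0.19 (SE, adjusted p = 0.879). Eif1ad differed by 0.34 without passing (adjusted p = 0.176).

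The 13 genes of eIF3, the scaffold that binds the small subunit, did not move as a unit under the percentile scaling. Of these, 6 rose, 4 fell and 3 did not pass, where 31.6% of all genes tested were called higher and 20.7% lower. The differences ran from -2.21 to 2.35. Eif3j, a loosely bound subunit gene named Eif3j1 in the current RefSeq table, rose most, with levels of -2.27, -2.45, -2.33, -2.78 and -2.56 in PBS-treated and -4.36, -4.63, -5.20 and -5.14 in control EVs. This amounted to 2.35 ± 0.21 (SE, adjusted p = 3.6e-05), and 2 of the 4 control arrays were above background. Eif3a, the largest subunit and a part of the ring on which the complex is built, went the other way (probe at chr19:60837465-60837524). It stood at -1.69, -1.63, -1.79, -1.89 and -1.88 in PBS-treated and at 0.87, 0.91, -0.14 and 0.12 in control EVs, all of them well above background. The groups did not overlap, at a difference of -2.21 ± 0.23 (SE, adjusted p = 9.55e-05) and a 4.64-fold lower level.

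Of the 8 genes of the eIF3 ring (Eif3a, Eif3c, Eif3e, Eif3f, Eif3h, Eif3k, Eif3l and Eif3m), 2 rose, 3 fell and 3 did not pass. Of the 5 others (Eif3b, Eif3d, Eif3g, Eif3i and Eif3j), 4 rose and 1 fell. Eif3d (0.84), Eif3g (0.75), Eif3b (0.62), Eif3c (0.57) and Eif3l (0.27) were higher, and Eif3k (-0.72), Eif3f (-0.53) and Eif3i (-0.51) were lower. On slides 1 and 2 Eif3f stood at -0.89 and -0.09, and Eif3i at -0.74 and -0.19. Neither Eif3f nor Eif3i passed by the percentile over all probes, with normexp and quantiles or in the deposited value table. The spike-in probes called both higher (0.77 and 0.79). The rise of Eif3l was small and lost its call without any 1 of the arrays other than control replicate 4, with adjusted p from 0.0527 without PBS-treated replicate 5 to 0.0893 without PBS-treated replicate 2. Eif3f lost its call without PBS-treated replicate 1, 2 or 3 or control replicate 1 or 2, with differences from -0.52 to -0.46 and adjusted p from 0.0509 to 0.0667. Eif3m did not pass (0.40, adjusted p = 0.202) with all arrays and was higher without PBS-treated replicate 3 (0.60, adjusted p = 0.00712). Eif3e and Eif3h differed by 0.23 and 0.05 without passing.

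The 3 genes of the DEAD-box helicase family named eIF4A rose. Eif4a1, the main helicase of initiation, had levels of 2.26, 2.14, 2.40, 2.04 and 2.005 in PBS-treated and 0.17, 0.39, -0.04 and 0.20 in control EVs (probe at chr11:69480486-69480545). The lowest PBS-treated array was above the highest control array, at a difference of 1.99 ± 0.14 (SE, adjusted p = 1.13e-05), and the difference was 1.99 on slide 1 and 1.94 on slide 2. Eif4a2, its close relative, stood at -0.01, 0.12, 0.00, 0.20 and 0.11 against -0.87, -0.89, -1.14 and -1.11, and rose by 1.09 ± 0.11 (SE, adjusted p = 8.07e-05). Eif4a3, which belongs to the exon junction complex, rose by 1.44 ± 0.15 (SE, adjusted p = 8.87e-05). Eif4b, which stimulates the helicase, fell instead: its levels were 0.03, 0.14, 0.15, 0.08 and -0.01 in PBS-treated and 1.18, 1.19, 0.99 and 0.91 in control EVs, without overlap (-0.99 ± 0.11, SE, adjusted p = 0.000121). Eif4h, a relative of Eif4b in function, differed by 0.29 without passing (adjusted p = 0.533), with 1.20, 1.23, -0.45, 1.27 and 1.44 on the PBS-treated arrays and 0.45 to 0.89 on the control arrays. Without PBS-treated replicate 3 it was higher by 0.64 (adjusted p = 0.00678).

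**Figure D3:**
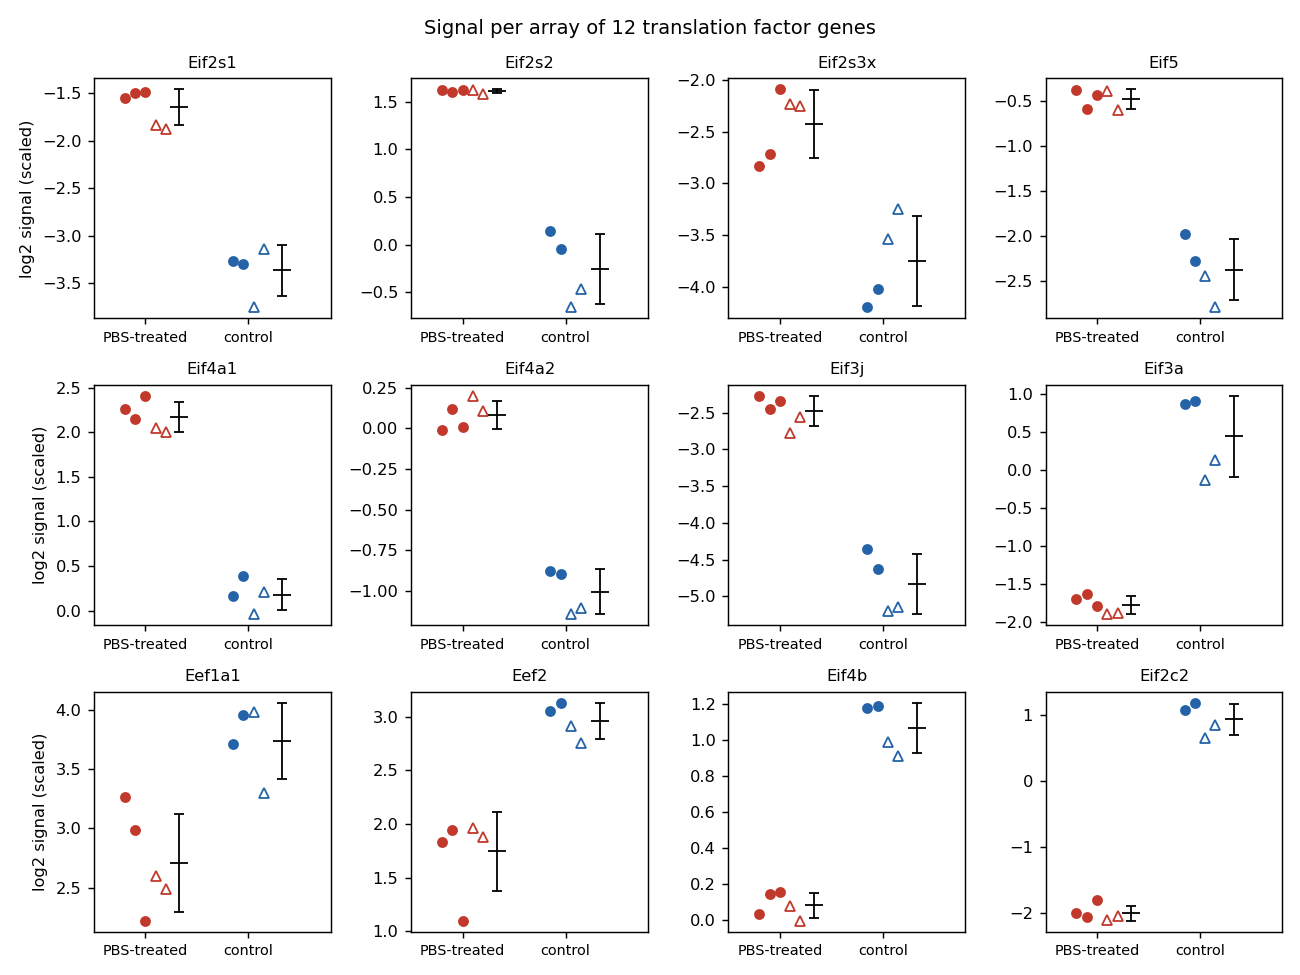
Level of 12 factor genes on each array (vertical axes, log2 of brightness over the array's 75th percentile, each panel on its own scale), for 5 PBS-treated (red) and 4 control (blue) arrays. Filled circles are slide 1, open triangles are slide 2, and the bars give the mean and SD of each group. In all 12 panels the groups do not overlap, with PBS-treated EVs higher for the first 7 genes and lower for Eif3a, Eef1a1, Eef2, Eif4b and Eif2c2.

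Eif6, whose product keeps the ribosomal subunits apart until it is released, rose by 0.86 ± 0.10 (SE, adjusted p = 0.000196), from levels of -0.29 to -0.01 in control EVs to 0.61 to 0.75 in PBS-treated EVs. Eif5b, the GTPase that joins the subunits, was well above background on none of the 9 arrays and was not tested. Eif5a, the factor with the modified lysine hypusine that helps ribosomes past difficult stretches, stood at 0.25, 0.26, 0.37, 0.19 and 0.16 in PBS-treated and -0.29, -0.28, -0.95 and -0.84 in control EVs. The 2 groups were separate, and Eif5a was 0.83 ± 0.17 higher (SE, adjusted p = 0.00339). Eif5al3-ps, a pseudogene named after Eif5a, rose by 0.94, and whether its probe reads Eif5a mRNA as well was not tested. Eif5a2 followed the slide and not the group: its levels were -2.38, -2.82, -3.10, -2.95 and -3.33 on the 5 arrays of slide 1 and -0.20, -0.42, -0.50 and -0.89 on the 4 arrays of slide 2. Its difference was 0.13 ± 0.86 (SE, adjusted p = 0.905), and 0.37 and 0.38 on slides 1 and 2.

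Of the 7 tested genes with an elongation factor name, Eef1a1, Eef2 and Eef1g fell, Eef1a2 and Eef1e1 rose, and Eef1b2 and Eef1d did not pass. Eef2, the translocase, had levels of 1.84, 1.95, 1.10, 1.96 and 1.88 in PBS-treated and 3.06, 3.13, 2.91 and 2.75 in control EVs (probe at chr10:80644934-80644993). All PBS-treated arrays were below all control arrays, at a difference of -1.22 ± 0.20 (SE, adjusted p = 0.00109) and of -1.06 without PBS-treated replicate 3, the lowest. Eef1a1, the carrier of aminoacyl-tRNA in most cells, stood at 3.27, 2.98, 2.22, 2.60 and 2.49 against 3.72, 3.96, 3.99 and 3.30 (probe at chr9:78326385-78326444). The highest PBS-treated array was just under the lowest control array, and the fit gave -1.03 ± 0.25 (SE, adjusted p = 0.00734). A further Eef1a1 probe, at chr9:78326435-78326494, was also above background on all arrays but gave -0.23 ± 0.41 (SE, adjusted p = 0.648), without passing.

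The exchange factor eEF1B, which reloads eEF1A, has several subunits. Eef1g fell by 0.84 on the log2 scale (SE 0.12, adjusted p = 0.000404), with 0.40 to 0.55 in PBS-treated and 1.14 to 1.49 in control EVs, and by 0.87 on a further probe. Eef1b2 differed by -0.34 ± 0.15 (SE, adjusted p = 0.0947; without control replicate 4, -0.44 with adjusted p = 0.0443), was called lower with slide as a block (-0.37, adjusted p = 0.0149) and with array weights (-0.44, adjusted p = 0.0117), and stood at -0.49 on slide 1 and -0.23 on slide 2. Eef1d did not pass (adjusted p = 0.997). Eef1a2, the eEF1A form of neurons and muscle, was 0.46 ± 0.17 higher (SE, adjusted p = 0.0486), yet the groups overlapped and the call was lost without any 1 of 7 arrays (every array but PBS-treated replicate 1 and control replicate 4, adjusted p from 0.0702 to 0.119). With normexp its difference was -0.33 with the percentile and 0.32 with quantiles, neither of which passed. Of the neuron and muscle markers, Stmn2, Myog and Ckm were above background on no array, while Snap25 and Syp were above it on all 9. Snap25 fell by 1.70 on the log2 scale, and Syp (-0.70, adjusted p = 0.233) and Acta1 (-0.87, adjusted p = 0.0548) did not pass. The summed level of the 6 markers was -0.71 to 0.15 in PBS-treated and 0.82 to 1.41 in control EVs, and their part in the Eef1a2 result was not tested. Eef1e1, a scaffold protein of the multisynthetase complex that carries an elongation factor name, rose by 1.42 ± 0.25 (SE, adjusted p = 0.00153). Eef2k, the kinase that inhibits eEF2, was above background on 1 of 9 arrays and was not tested.

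Eef1a1 and Eef2 were below the median of all genes under each of 6 ways of processing, but not always below 0. Scaling to 8 spike-in probes raised the median difference of all genes to 1.29, and Eef1a1 then differed by 0.27 and Eef2 by 0.08. Against that median they were at -1.02 and -1.20, as they were with the percentile. Likewise, 6 members called lower with the percentile were called higher by the spike-in probes, Eef1g at 0.46, Eif2b5 at 0.88, Eif3f at 0.77, Eif3i at 0.79, Eif3k at 0.58 and Eif4b at 0.31, all below that median. With normexp and the percentile Eef1a1 and Eef2 were at -0.63 and -0.88, the smallest of the 6.

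Since the mRNAs of elongation factors are known for pyrimidines at their start, the letters around the annotated starts were read from the RefSeq promoter table of GRCm38.p6, a later build than the mm9 of the array. An unbroken run of at least 8 C or T, beginning with C and starting within 30 bases of an annotated start on the sense strand, was present in 5790 of 27025 genes (21.4%), 42 of 69 genes with a ribosomal protein symbol (60.9%) and 11 of the 45 members with an entry (24.4%). Runs on either side of the start counted, so a run may lie before the annotated start and outside the mRNA. This is so for Eif3m (11 bases from -20) and Eef2k (10 bases from -24). By call, the run was present for 4 of 8 lower members and 5 of 25 higher members. The following stretches of 30 bases, with the run in capitals, show lower members with it (Eef1a1, Eif3f, Eif3k and Eif2b5), a lower member without it (Eef2), the X and Y copies of the eIF2 gamma gene, which rose and have it, and the other eIF2 genes, which rose and do not.
Eef1a1, chr9:78481710-78481739, minus strand: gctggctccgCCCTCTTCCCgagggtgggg
Eif3f, chr7:108934400-108934429, plus strand: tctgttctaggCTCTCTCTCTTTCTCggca
Eif3k, chr7:28981865-28981894, minus strand: ggcgctggtgctgaaagcgCCTTTCCCTTT
Eif2b5, chr16:20498802-20498831, plus strand: CCTTCCTCTTTCTCTCCCTgcaactacacc
Eef2, chr10:81176616-81176645, plus strand: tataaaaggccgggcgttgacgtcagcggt
Eif2s3x, chrX:94212637-94212666, minus strand: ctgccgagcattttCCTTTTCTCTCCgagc
Eif2s3y, chrY:1010580-1010609, plus strand: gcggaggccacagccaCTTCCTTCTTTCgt
Eif2s1, chr12:78862057-78862086, plus strand: cgctgggttgggcgaagcgcacgctgagga
Eif2s2, chr2:154892892-154892921, minus strand: cacgtaaggttggctttactgtacgcctgc
The run length was 10 in Eef1a1, 15 in Eif3f, 11 in Eif3k, 19 in Eif2b5 and 12 in each of Eif2s3x and Eif2s3y. The window and run length were chosen after the levels were seen, an annotated start may not be the start used in these cells, and a match or its absence is a description of letters alone.

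The ribosomal protein genes, whose mRNAs share such a tract, were read in the same fit. That fit called 31.6% of all genes higher and 20.7% lower. Of 81 tested, 36 were lower, 43 did not pass and 2 were higher, and those 2 were Rps19bp1, whose product binds a ribosomal protein and is listed by its symbol alone, and Rps27l. Of 6 other genes known for the tract, Gnb2l1 (the ribosomal scaffold RACK1) fell by 0.44 on the log2 scale (adjusted p = 0.00483), Btf3 rose by 0.69 (adjusted p = 0.00504) and 4 did not pass. These counts moved with the scaling. By the percentile over all probes, limma called 0 of the 81 ribosomal protein genes (1 was higher and 0 lower at an unadjusted p under 0.05), and by the spike-in probes it called 74 higher and 0 lower (74 and 0 unadjusted). Gnb2l1 turned to 0.86 by the spike-in probes, 0.06 with normexp and quantiles and 0.09 in the deposited value table.

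The older names of the Argonaute genes, which bind microRNAs and are no translation factors, also meet the naming rule. Eif2c2 (Ago2, the slicing Argonaute; probe at chr15:72936863-72936922) had the largest fall of all members. Its levels were -2.001, -2.05, -1.81, -2.10 and -2.05 in PBS-treated and 1.07, 1.19, 0.65 and 0.85 in control EVs. The groups did not overlap and every array was above background, for a difference of -2.94 ± 0.14 (SE, adjusted p = 2.07e-06), a 7.68-fold lower level. A further Eif2c2 probe gave -2.52 ± 0.31 (SE, adjusted p = 0.000203). Eif2c4 (Ago4) fell by 1.61 on the log2 scale (SE 0.28, adjusted p = 0.00138), but it was above background on only 2 arrays of each group, and probes that never rose above background, 30195 of them, shifted by a median of -1.34. Eif2c1 (Ago1) and Eif2c3 (Ago3) were above background on 0 and 1 of 9 arrays and were not tested. Without the 4 Argonaute genes and the pseudogene, 28 of 48 members were higher and 9 lower, with a median of 0.66.

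In 7 pairs of near relatives, the level of the first gene relative to the second was taken on each array, which removes any scaling of the array but leaves the probes' own affinities, so that it shows unequal change alone. Eif4a1 minus Eif4a2 was 2.27, 2.02, 2.40, 1.84 and 1.90 in PBS-treated and 1.04, 1.28, 1.10 and 1.31 in control EVs. It thus grew by 0.91 without overlap (exact permutation test, two-sided, over all splits of the arrays, p = 0.00794, the smallest they can give, and 0.0278 adjusted over the 7 pairs), with 1.07 on slide 1 and 0.67 on slide 2. Eif1 minus Eif1b was 3.33, 3.51, 3.49, 3.50 and 3.24 against 2.77, 2.62, 2.84 and 2.76, and grew by 0.67 with the same exact permutation p and adjusted value. Eef1a1 minus Eef1a2 differed by -1.49 without passing once adjusted (exact permutation p = 0.0238, adjusted 0.0556). Eif1a minus Eif1ax differed by 0.28 (exact permutation adjusted p = 0.0972), Eef1b2 minus Eef1d by -0.34 (exact permutation adjusted p = 0.156) and Eif5a minus Eif5a2 by 0.70 (exact permutation adjusted p = 0.5). Leaving out 1 array left Eif4a1 minus Eif4a2 between 0.83 and 0.97 and Eif1 minus Eif1b between 0.62 and 0.71, but fewer arrays allow fewer splits, and both adjusted values stayed under 0.05 only without control replicate 4 (0.0417, up to 0.1 otherwise). On slide 1 alone, with 3 arrays against 2, p cannot go below 0.1, and on slide 2, with 2 against 2, not below 0.333. Probes of such relatives, as of Eef1a1 and its many processed copies, may take up each other's RNA, which was not tested.

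Of the members, 20 have several probes, and for 16 of them at least 2 probes were above background on 4 or more arrays. For 15 of the 16 every probe had the same sign, and no member had probes called in both directions. Eif4b was lower on 3 of 3 probes (-0.99, -1.58 and -1.04), as was Eif3k (-0.72, -1.13 and -0.48). Eif5 rose on both probes (1.90 and 1.45), and so did Eif2s2 (1.87 and 1.25), Eif2s3x (1.33 and 1.56), Eif4a2 (1.09 and 1.34) and Eif6 (0.86 and 0.94). The second probe of Eif2b3 gave 1.51 without passing (adjusted p = 0.138).

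The direction was the same on both slides for 45 of the 51 members, against 84.1% of all genes. The median difference of the members was 0.51 on slide 1 and 0.79 on slide 2. With slide as a block in the fit, 29 members were higher and 12 lower, where 69.7% of all genes were called (35.5% higher and 34.2% lower), so that in this fit the members' share of lower calls was under that of all genes.

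**Figure D4:**
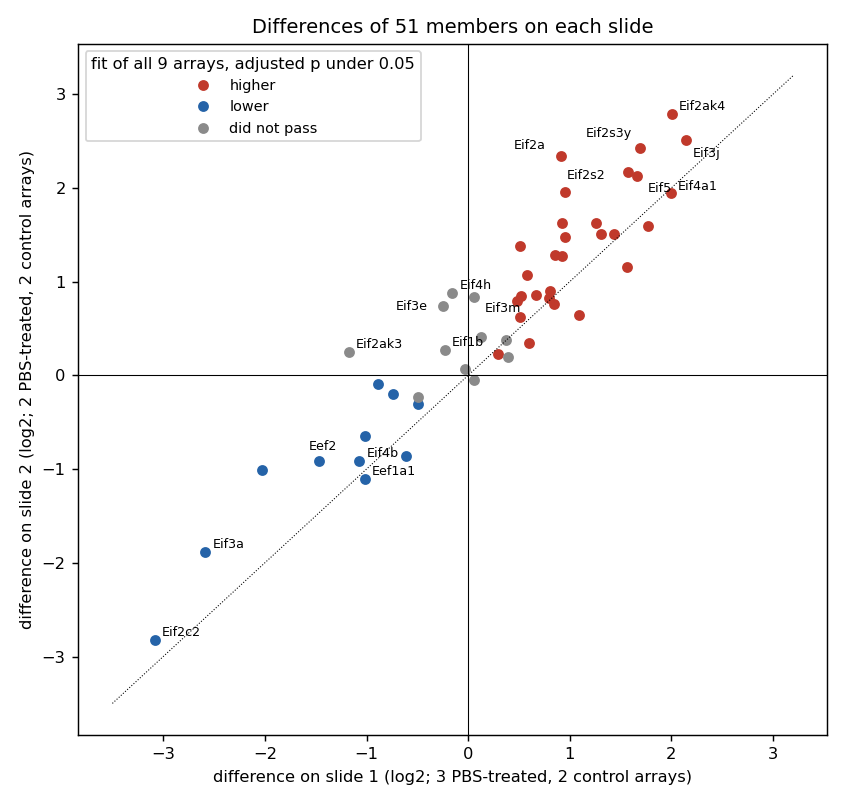
Difference of each of the 51 members on slide 1 (horizontal axis, log2) and slide 2 (vertical axis, log2), coloured by the call of the fit of all 9 arrays. The dotted line marks equal differences. For 45 members both differences have the same sign, and Eif2ak3, at -1.17 and 0.25, is among the others.

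Other genes of the translation cycle were taken from lists of known function. Their counts stand beside 31.6% of all genes tested called higher and 20.7% called lower. Of 14 tested genes of poly(A) binding, termination and recycling, 8 rose and 2 fell. Ddx3x, a helicase of initiation, rose by 2.65 ± 0.14 (SE, adjusted p = 3.46e-06), and Pabpc4, a poly(A)-binding protein, fell by 1.72 on the log2 scale (SE 0.15, adjusted p = 3.75e-05). Of 8 tested genes that control the factors, 5 rose and 3 fell. Mknk2, a kinase of eIF4E, fell by 2.60 on the log2 scale (adjusted p = 2.31e-05), and Impact, an inhibitor of the kinase GCN2, rose by 2.36 (adjusted p = 0.000188).

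Of 11 targets of the integrated stress response, the programme that phosphorylated eIF2 sets off, 6 rose, 2 fell and 3 did not pass. Among all genes tested, 31.6% were called higher and 20.7% lower. Cebpb rose by 3.46 ± 0.14 (SE, adjusted p = 1.25e-06) and Chac1 by 1.83 ± 0.17 (SE, adjusted p = 5.39e-05). Atf4, the central factor of the programme, rose by 1.43 (adjusted p = 0.00087), while Ddit3 (CHOP) differed by -0.02 (adjusted p = 0.909) and Nupr1 fell by 1.11 on the log2 scale (adjusted p = 0.000539), these 3 being named after their values were seen. Of 8 tested mitochondrial translation factors, 5 rose and 3 did not pass. Mtrf1l, a release factor, rose by 1.88 ± 0.21 (SE, adjusted p = 0.000118) and Gfm1, the mitochondrial counterpart of eEF2, by 1.88 ± 0.40 (SE, adjusted p = 0.00413). Both were above background on fewer than all control arrays, and Mtrf1l differed by -0.01 with normexp and the percentile.

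Under 6 ways of scaling and background correction, 12 members were called higher each time (Eif1a, Eif1ax, Eif2b2, Eif2s1, Eif2s2, Eif3g, Eif3j, Eif4a1, Eif4a2, Eif4a3, Eif5 and Eif6) and 2 were called lower each time (Eif2c2 and Eif3a). Read against the median difference of all genes, which itself moved between -0.51 and 1.29, 35 of the 51 members were above it and 10 below it under all 6. With normexp and the percentile, 2 of the members called higher and 2 of those called lower (Eif3f and Eif3i) were on the other side of that median. The remaining calls kept their side of it under each of the 6. The shares of all genes that kept a call or a side under all 6 were not computed. These counts therefore do not set the members apart from the array.

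**Figure D5:**
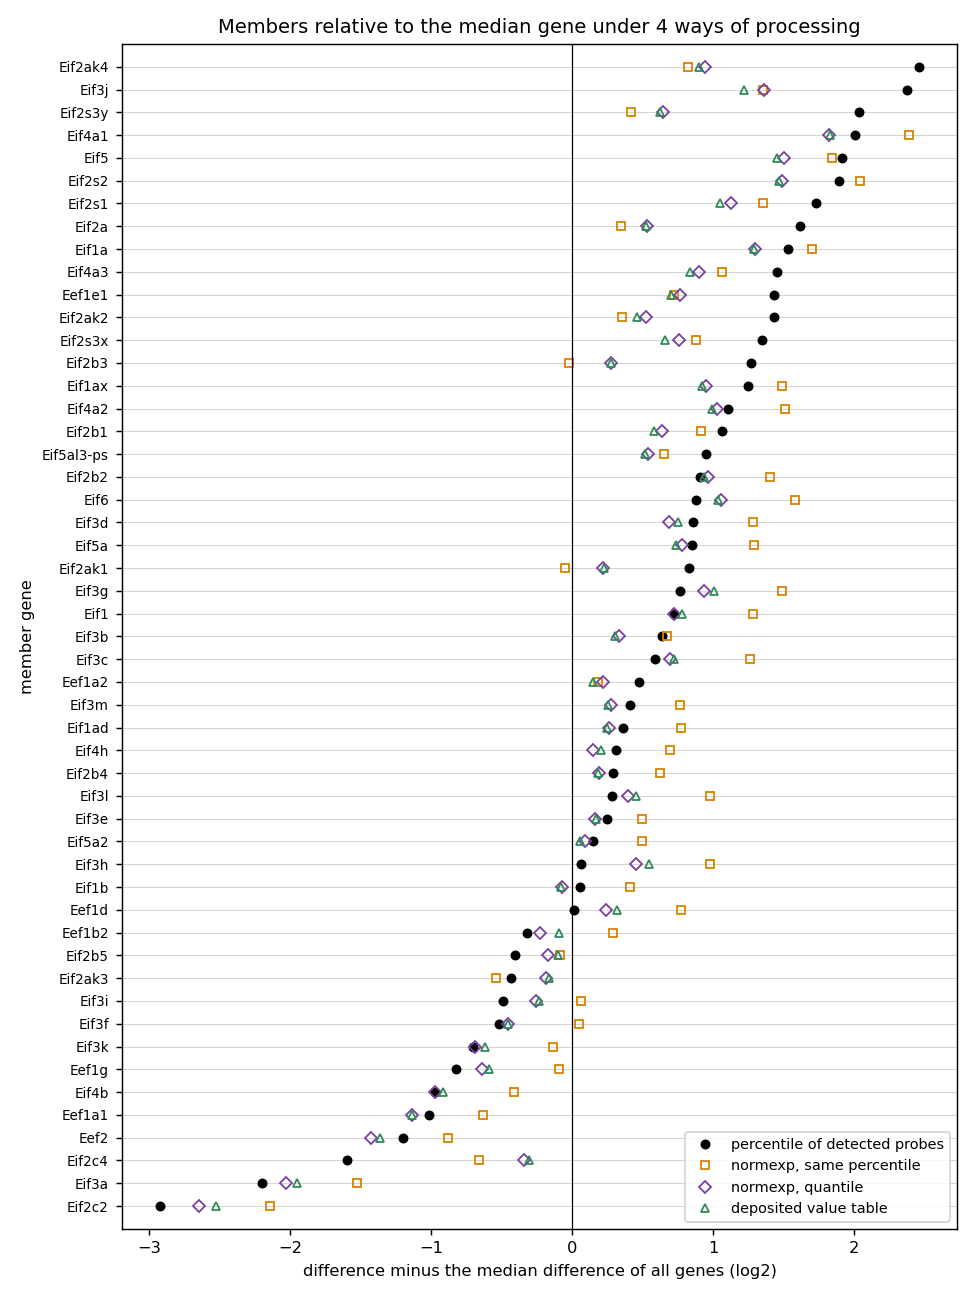
Difference of each of the 51 members minus the median difference of all genes (horizontal axis, log2) under 4 ways of processing, with the members in order of the percentile scaling. Scaling to spike-ins or to all probes moves every gene alike and gives the same positions as the percentile. Eif3a lies between -2.20 and -1.53 and Eif4a1 between 1.82 and 2.39 under all 4.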

How the data were processed

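Total RNA of extracellular vesicles (5 PBS-treated and 4 control samples) was labelled with Cy3 and hybridised to 1-colour Agilent mouse arrays of 62976 spots annotated on mm9. The deposited scanner files hold each spot's intensity, which Agilent's Feature Extraction software (version 10.7.3.1) had background-corrected before the authors deposited it. The authors also deposited a log2 value table from their own pipeline. Its values rank as the mean signal does (Spearman 1) and every array has a median of 5.97, how it was centred is unknown, and it was used as an alternative.

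From the processed intensity, log2 minus each array's 75th percentile over the 8416 probes above background on all 9 arrays was taken, with 1 probe per gene. Genes above background on at least 4 arrays were tested with limma 3.58.1 (R 4.3.3), with Benjamini-Hochberg adjustment over all genes and a threshold of 0.05. The fit was tested on simulated data. Within-array differences of 7 gene pairs were compared by exact permutation. Arrays give no counts, and their number limits the precision. Replicate numbers came from the labels.

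Members, gene lists and alternatives were chosen with earlier results of these data known. Ribosomal protein genes were taken by symbol. The genes to name were members past 2-fold without overlap, the kinases, the pairs, Eef1a1, Eef2, Eif2s1, Eif3a, Eif4a1, Eif5a, Eif5b and Eif6, members above background in 1 group only, and up to 2 genes of smallest p per other list. Alternatives were other scalings, normexp (offset 50), the value table, the filter, other probes (added after seeing the data), array weights, a robust fit, slide, replicate block, left-out arrays and the methods' t-test. Of the 55 gene names, 54 matched a current RefSeq symbol. Sequences came from RefSeq (GRCm38.p6), where 45 members had an entry.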

Additional observations from a re-analysis of the deposited data

Results flagged for a closer look

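Within a group, 4 values of the members named by rule stood apart from the other arrays by Dixon's test, which chance alone does in about 1 in 20 groups. Eef2 was at 1.10 on PBS-treated array 3, below the other 4 at 1.84 to 1.96, and Eif1b was at -1.22 on PBS-treated array 4. Eif2s3y was at -5.73 on control array 1, above the other control arrays but not well above background, and Eef1e1 was at -5.14 on control array 3. PBS-treated array 3 stood apart on the low side for 5.88% of the 51 members (Eef2, Eif3m and Eif4h) and 3.99% of all genes, and no cause was tested.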

How the results depend on the processing

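Of the 51 members, 45 kept their call when any 1 array was left out, with 27 to 29 higher, 10 to 12 lower and a median of 0.56 to 0.67. Over the same fits, ribosomal protein genes called higher numbered 1 to 2, Eif5a2 ran from -0.34 to 0.60, Eef1d from -0.032 to 0.050 and Eif1b from -0.13 to 0.17. Eif4a1 minus Eif4a2 ran from 0.83 to 0.97, Eif1 minus Eif1b from 0.62 to 0.71 and Eef1a1 minus Eef1a2 from -1.76 to -1.34. The percentile over all probes called 3 members and 1348 of all genes lower, with a member median of 1.02, 3 other translation genes lower and 0 ribosomal protein genes either way, and turned Eef1b2 (0.063) and Eef1d (0.40). The spike-in probes called 44 members higher and 2 lower (median 1.92), 8969 and 697 of all genes, 39 and 2 other translation genes, and 74 and 0 ribosomal protein genes, and turned Eef1b2 (0.96), Eef1d (1.30), Eif2ak3 (0.85), Gnb2l1 (0.86), Eef2 (0.084) and Eef1a1 (0.27), as well as 6 lower members that it called higher (Eef1g 0.46, Eif2b5 0.88, Eif3f 0.77, Eif3i 0.79, Eif3k 0.58 and Eif4b 0.31). These scalings shift all genes alike. Normexp with the percentile called 16 members higher (median 0.18), 1888 of all genes higher and 4659 lower, 15 other translation genes higher, and 1 ribosomal protein gene higher and 20 lower. It turned Eif5a2 (-0.016), Eef1d (0.26), Eif2ak1 (-0.56), Eif2a (-0.17), Mtrf1l (-0.0094), Eif2b3 (-0.54), Eif1b (-0.10), Eif2ak2 (-0.16), Eif2s3y (-0.10), Eef1a2 (-0.33) and Eif2s3x minus Eif2s3y (0.46), and Eef1b2 minus Eef1d passed (-0.48). Normexp with quantiles called 6 members and 1895 of all genes lower (median 0.49), and 4 ribosomal protein genes higher and 10 lower, turned Eef1d (0.34), Gnb2l1 (0.056) and Eif2s3x minus Eif2s3y (0.11), and passed Eef1a1 minus Eef1a2 (-1.36) and Eef1b2 minus Eef1d (-0.47). The value table called 6 members and 1886 of all genes lower, and 7 ribosomal protein genes higher and 3 lower, turned Eef1b2 (0.0058), Eef1d (0.41), Gnb2l1 (0.091) and Eif2s3x minus Eif2s3y (0.034), and passed Eef1a1 minus Eef1a2 (-1.28) and Eef1b2 minus Eef1d (-0.41). Without a filter the member median was 0.46, with 5262 of all genes lower and 1 ribosomal protein gene higher and 17 lower, and with genes above background on all 9 arrays the median was 0.40 and 2362 of all genes were higher. Array weights turned Eef1d (0.020) and Eif1b (-0.11). Slide as a block called 4886 of all genes lower and turned Eef1d (0.011) and Eif1b (-0.0015). Slide 1 alone called 4474 of all genes lower and 1 ribosomal protein gene higher, and turned Eef1d (0.059) and Eif1b (-0.23). Slide 2 alone gave a median of 0.79 and turned Eif2ak3 (0.25). Neither slide could pass Eif4a1 minus Eif4a2 (1.07 and 0.67) or Eif1 minus Eif1b (0.75 and 0.57). Without control replicates 3 and 4, 1 ribosomal protein gene was higher, Eef1d (0.088), Eif1b (-0.29) and Eif5a minus Eif5a2 (-0.82) turned, and Eif4a1 minus Eif4a2 (0.93) and Eif1 minus Eif1b (0.72) did not pass. Those replicates are the only control arrays of slide 2, so PBS-treated arrays of both slides then met controls of slide 1 alone. Replicate numbers showed no pairing beyond the slide. Deviations of same-numbered arrays correlated at 0.70, 0.73, -0.54 and 0.74, the arrays of replicate 3 (-0.54) lying on different slides. Differently numbered PBS-treated and control arrays of the same slide correlated at 0.57 to 0.71, and PBS-treated replicate 5 has no partner. With the replicate block, 27 members were higher and 10 lower, 4079 of all genes higher and 3351 lower, and Eif5a2 (-0.21) and Eef1d (0.0086) turned. The methods' t-test called 30 members higher and 12 lower unadjusted and 29 and 11 after Benjamini-Hochberg, with 1 ribosomal protein gene higher. Causes of these changes were not tested. Levels near background limit the precision of the dim members.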
